A study of Rattus norvegicus with 24 samples.

Results

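Small RNA of the cortex was compared with small RNA of the thalamus in 6 sham-operated rats, to describe how the miRNA and tRNA fragment profiles of the 2 regions differed without head injury. The comparison took the 12 sham libraries (6 from cortex and 6 from thalamus) out of the 24 libraries of the series, and the rat number in the sample titles paired the 2 libraries of each animal. The animals were adult male Sprague-Dawley rats examined 3 months after surgery. They had anesthesia and the complete operation, a craniectomy over the left parietal lobe included, but no fluid-percussion impact, so both regions came from operated and not from naive brains. Cortex tissue was taken where the lesion border lies in injured animals, and thalamus from the operated side, both out of the same coronal slice. The remaining 12 libraries, from 6 rats with lateral fluid-percussion injury (TBI), carry the same 2 regions and served as other animals in which the sham result was looked up.

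MicroRNAs (miRNAs) are short RNAs that guide Argonaute proteins to messenger RNAs, mainly by pairing of a short stretch near their 5′ end, the seed. Each precursor hairpin can give a miRNA from its 5′ arm (5p) and from its 3′ arm (3p), and miRNAs that lie close together in the genome are often cut from a single transcript. Brain is rich in miRNAs of neurons such as miR-124, miR-9 and miR-128, while miR-219 and miR-338 are known for their part in making myelinating oligodendrocytes. Cortex is mostly grey matter, and thalamus is crossed by many myelinated fibre bundles. Fragments of transfer RNAs are cut from mature tRNAs, often at the anticodon loop, and are counted here per annotated tRNA gene.

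The sequences below show the miRNAs that carried the regional difference, as RefSeq gives the mature forms for the rat assembly GRCr8. Letters run 5′ to 3′ and the capitals mark the seed, bases 2 to 8. Positions on GRCr8 are given with them below, and the first block was higher in cortex.
miR-132-3p: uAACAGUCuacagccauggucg
miR-212-3p: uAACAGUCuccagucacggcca
miR-132-5p: aCCGUGGCuuucgauuguuacu
miR-212-5p: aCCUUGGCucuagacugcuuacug
miR-128-3p: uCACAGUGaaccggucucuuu
miR-139-5p: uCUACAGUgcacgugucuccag
miR-218a-5p: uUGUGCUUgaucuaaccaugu
miR-199a-5p: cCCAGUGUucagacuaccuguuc
The next block was higher in thalamus.
miR-219a-2-3p: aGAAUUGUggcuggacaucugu
miR-219a-5p: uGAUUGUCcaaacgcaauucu
miR-338-5p: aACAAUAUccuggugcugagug
miR-338-3p: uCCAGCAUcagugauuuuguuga
miR-34b-5p: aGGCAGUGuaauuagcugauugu
miR-34c-5p: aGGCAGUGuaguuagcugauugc
miR-375-3p: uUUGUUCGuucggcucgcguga
miR-181a-5p: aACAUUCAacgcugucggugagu
miR-181b-5p: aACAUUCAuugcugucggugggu
miR-135a-5p: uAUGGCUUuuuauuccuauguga
miR-21-5p: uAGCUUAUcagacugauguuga
miR-298-5p: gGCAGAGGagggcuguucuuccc
The miR-132 and miR-212 arms lie on chromosome 10 (chr10:60521771-60521794 for miR-212-5p and chr10:60522091-60522112 for miR-132-3p, plus strand) outside a protein-coding gene model of the table. miR-219a-2-3p lies at chr3:33516517-33516538 and the miR-219a-5p of the same hairpin at chr3:33516561-33516581, on the minus strand within Cercam. miR-34b-5p (chr8:60306657-60306679) and miR-34c-5p (chr8:60306133-60306155) lie on the minus strand within Hoatz, and miR-375-3p at chr9:83906591-83906612 on the minus strand within Cryba2. Whether they fall in exons or introns was not read from the table. The 3p arms of miR-132 and miR-212 share the seed AACAGUC, the 5p arms of miR-34b and miR-34c share GGCAGUG, and miR-181a-5p and miR-181b-5p share ACAUUCA. Of the 728 miRNAs listed in the counts, 655 matched a RefSeq mature form with a single seed, and these held 89.8% of the sham miRNA reads. The mature sequence was found for 77 of the 81 miRNAs that differed between the regions. The other 4, miR-383-5p, miR-328a-3p, miR-378b and miR-301a-3p, are named only.

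Depth overlapped between the regions. The sum of miRNA reads per library ran from 744564 to 4069284 in cortex and from 523298 to 4139901 in thalamus, and an exact two-sided paired permutation test over the 6 rats gave p = 0.969. The thalamus library of rat 55 stood apart. A second value of results below therefore leaves out rat 55, its cortex library included, so it does not isolate the thalamus library. That thalamus library was the shallowest of the 12, and it lay at 17.7 on the second principal component where the other 11 lay between -6.68 and 2.52. Its median correlation with the other thalamus libraries was 0.934, equal to that with the cortex libraries to 3 digits. The other thalamus libraries correlated at 0.978 to 0.987 within their region and at 0.956 to 0.965 with cortex.

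**Figure D1:**
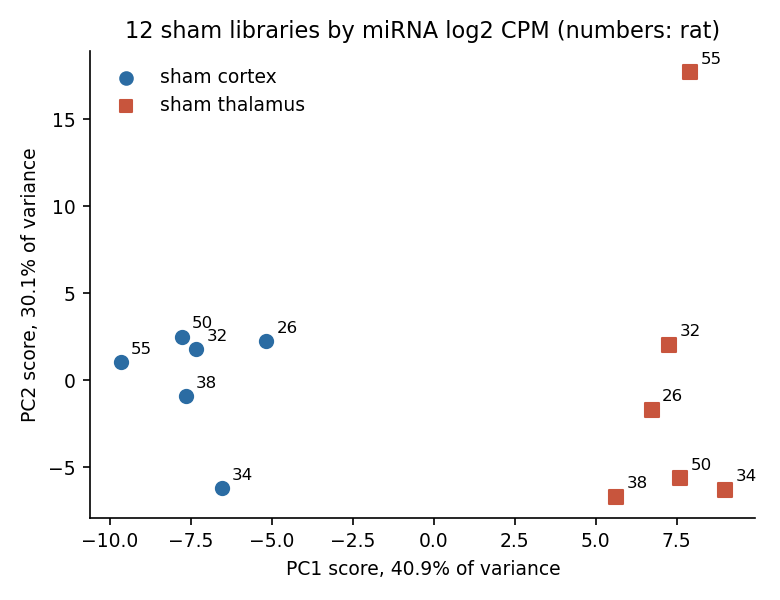
Principal component scores of the 12 sham libraries from miRNA log2 CPM, with circles for cortex, squares for thalamus and the rat number beside each point. The first component (40.9% of the variance) separates the 2 regions, and the second (30.1%) separates the thalamus library of rat 55 at 17.7 from the rest.

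The most abundant miRNAs were largely common to both regions. Among the 10 with the largest mean share of reads in cortex, 9 were also among the 10 largest in thalamus, and the first 3 places went to the same miRNAs in the same order. miR-128-3p, a neuronal miRNA, took 20.9% of the cortex reads at the lowest, 27.2% at the median and 32.8% at the highest. In thalamus the same values were 11.6%, 12.9% and 20.6%. The share of the thalamus library of rat 55 was the highest of its region and close to the 20.9% of the cortex library of that rat, while in the other 5 rats the share in thalamus was below every cortex share. miR-9a-5p followed with 9.81% ± 0.890 (SD, n = 6) of the reads in cortex and 8.19% ± 1.14 in thalamus. miR-26a-5p came next with 6.62% ± 0.417 and 7.22% ± 1.28, a smaller gap than the spread in thalamus. miR-181a-5p was the 5th in thalamus at 3.67% ± 0.355 and the 11th in cortex at 1.90% ± 0.433.

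The share of reads in the most abundant miRNAs was compared next. The 10 most abundant miRNAs of a library took between 57.1% and 68.0% of its reads in cortex (median 63.1%) and between 49.98% and 58.4% in thalamus (median 51.5%). The share was 10.3 percentage points lower in thalamus (SD 6.14 over the 6 rats), lower in 5 of 6 rats and not in rat 55, and did not pass, with an exact two-sided paired permutation p of 0.0625, adjusted to 0.188 over the 3 measures tested in this way. The smallest p that 6 pairs allow is 0.0312. Taking the 5 most abundant miRNAs, the difference was 12.9 points and the exact permutation p, not adjusted, was 0.0312.

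Across all miRNAs the regions differed at many features in both directions. Of 375 miRNAs with enough reads to be tested, 42 were higher in thalamus (11.2% of those tested) and 39 were higher in cortex (10.4%), together 81 or 21.6%, at an adjusted p under 0.05 in the edgeR quasi-likelihood test with rat as a block. The differences of those called ran from 0.61 to 3.34 on the log2 scale in favour of thalamus and from -0.52 to -2.75 in favour of cortex, and the median over all 375 was 0.05. The 6 libraries of one region lay entirely above the 6 of the other for 48 of the 81, against 52 of all 375 (13.9%). In 68 of the 81 all 6 rats lay on one side, against 98 of all 375 (26.1%). All fold changes below are levels in thalamus over levels in cortex, and levels are CPM, the reads of an RNA per 1e+06 reads of its library after scaling by trimmed means (TMM).

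**Figure D2:**
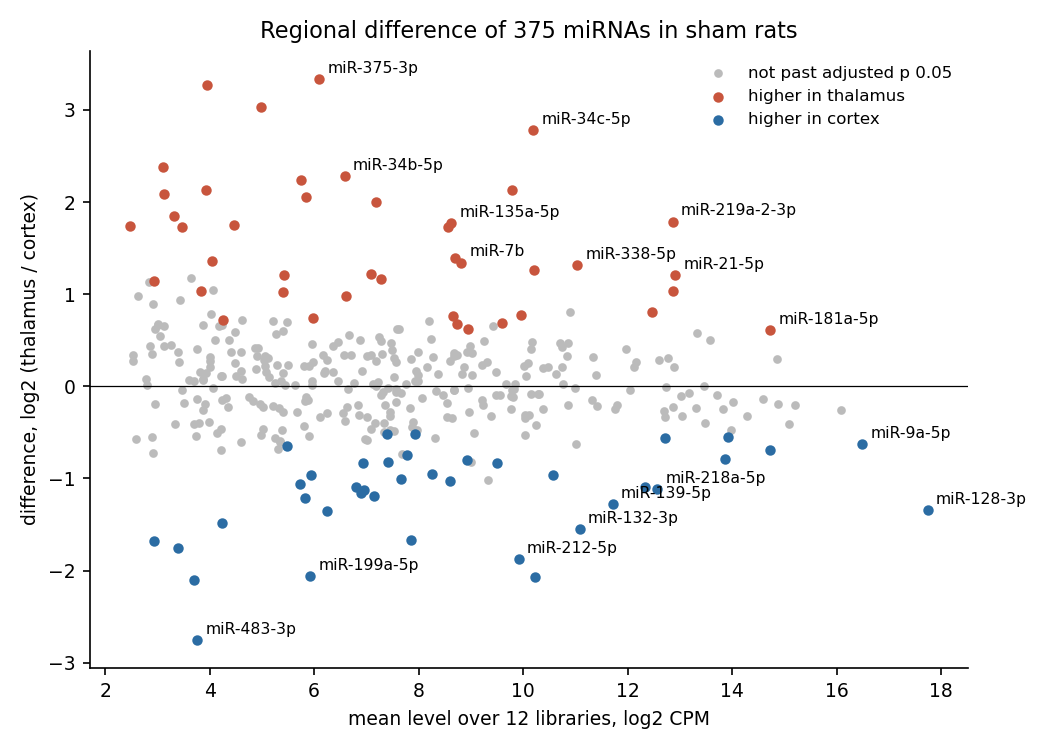
Difference between the regions, as log2 of thalamus over cortex, against the mean level in log2 CPM for the 375 miRNAs tested in sham rats. Red points (42) were higher in thalamus and blue points (39) higher in cortex at an adjusted p under 0.05, grey points did not pass, and called miRNAs are found from the rarest to the most abundant, miR-128-3p at the far right.

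Scaling and a single rat both moved these counts. Without rat 55 the calls rose to 139 (66 higher in thalamus, 73 higher in cortex), and 79 of the 81 were among them. With library totals as the only scaling, 112 miRNAs were higher in thalamus and 21 higher in cortex, and the median over all miRNAs moved to 0.42, a shift that all values on that scale carry. Counts of list members without rat 55 or on library totals stand beside these larger totals and not beside the shares of the main fit. Because the 12 samples are bulk tissue, fewer cells of a type and less of an RNA per cell cannot be told apart in any of the values that follow.

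The oligodendrocyte miRNAs were higher in thalamus. Of 5 tested arms of miR-219a and miR-338, 4 rose and none fell, beside 11.2% and 10.4% of all miRNAs, and the list median was 1.39 on the log2 scale. miR-219a-2-3p, which represses factors that keep oligodendrocyte precursors dividing, read between 2769 and 3807 CPM in cortex (median 3252) and between 8018 and 16329 CPM in thalamus (median 11628). Every thalamus library was above every cortex library, and the level was 3.45-fold higher in thalamus (log2 difference 1.79, SE 0.17, edgeR adjusted p = 9.97e-06). The other arm, miR-219a-5p, is shared with another miR-219a hairpin, whose 3p arm did not pass, and its reads were not divided between the hairpins. miR-219a-5p ran from 121 to 296 CPM in cortex (median 155) and from 281 to 830 CPM in thalamus (median 580.3). The ranges overlapped by 1 library of each region, yet all 6 rats were higher in thalamus (log2 difference 1.73, SE 0.20, edgeR adjusted p = 3.85e-05). miR-338-5p lies in the gene Aatk and went from 976 to 1519 CPM in cortex (median 1130.3) to 2158 to 3817 CPM in thalamus (median 3039). Its log2 difference was 1.32 (SE 0.16, edgeR adjusted p = 7.30e-05), and the 3p arm of the same hairpin gave 1.39 (SE 0.20, edgeR adjusted p = 0.000186). Summed over the list, the cortex libraries ran from 4329 to 5723 CPM and the thalamus libraries from 11952 to 20412 CPM. The same 4 arms rose without rat 55.

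The miR-34b and miR-34c hairpins were also higher in thalamus, in all 4 of their arms. These 2 hairpins lie within 10 kb of each other on chromosome 8, inside Hoatz, a gene of ciliated cells, and are known from multiciliated epithelium as well as from p53 responses. miR-34c-5p read 173 to 548 CPM in cortex (median 252) and 899 to 3171 CPM in thalamus (median 2085). The regions did not overlap, and thalamus was 6.87-fold higher (log2 difference 2.78, SE 0.27, edgeR adjusted p = 9.97e-06). miR-34b-5p ran from 18.5 to 51.7 CPM in cortex (median 30.0) and from 98.2 to 237 CPM in thalamus (median 132), again without overlap (log2 difference 2.28, SE 0.20, edgeR adjusted p = 8.87e-06). The 3p arms were rare, with medians of 4.75 and 2.46 CPM in cortex for miR-34b-3p and miR-34c-3p, and 46.2 and 25.6 CPM in thalamus. Their log2 differences were 3.03 (SE 0.37) and 3.27 (SE 0.42), and both passed the test.

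miR-34b and miR-34c belonged to a list of miRNAs of choroid plexus, pigment cells and ciliated epithelium. Of its 7 tested members 4 rose, beside 11.2% of all miRNAs, and all 4 were arms of these 2 hairpins. miR-204-5p, a marker of choroid plexus and pigment epithelium, ran from 899 to 1912 CPM in cortex and from 1169.8 to 4718 CPM in thalamus, overlapped widely and did not pass (log2 difference 0.81, SE 0.35, edgeR adjusted p = 0.111). miR-204-3p and miR-211-5p did not pass either, at log2 differences of 0.70 and 0.25, and miR-449a-5p, another ciliated-cell miRNA, had at most 7 reads in any sham library and was not tested. The summed level of the list ran from 1170.5 to 2606 CPM in cortex and from 2461 to 7575 CPM in thalamus. The part of such cells in the miR-34 difference was not tested.

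miR-375-3p, an endocrine and neuroendocrine miRNA, had the largest difference of all tested. In cortex it read 6.13 to 17.5 CPM (median 11.1) and in thalamus 56.7 to 208 CPM (median 120.1). No library of one region reached the other, and thalamus was 10.1-fold higher (log2 difference 3.34, SE 0.33, edgeR adjusted p = 9.97e-06). The thalamus library of rat 55 was the highest, and without that rat the log2 difference was 3.10. miR-7b, of the miR-7 family that is enriched in neuroendocrine and hypothalamic neurons, was also higher in thalamus, at 463 to 954 CPM (median 615) against 205 to 298 CPM in cortex (median 253). It did not overlap (log2 difference 1.34, SE 0.20, edgeR adjusted p = 0.000263). The more abundant family member miR-7a-5p, which has the same seed, ran from 6463 to 9944 CPM in cortex and from 9113 to 17949 CPM in thalamus, was higher in 5 of 6 rats and did not pass (log2 difference 0.58, SE 0.21, edgeR adjusted p = 0.0633, and 0.0278 without the rat block).

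Other miRNAs higher in thalamus came from several families. miR-135a-5p read 155 to 193 CPM in cortex (median 167) and 387 to 1028 CPM in thalamus (median 569), and its log2 difference was 1.77 (SE 0.21, edgeR adjusted p = 3.97e-05). The rare 3p arm of miR-135a gave the same size, 1.76 (SE 0.27). miR-298-5p lies beside miR-296 in an imprinted region and went from 11.7 to 30.2 CPM in cortex (median 15.4) to 57.5 to 109 CPM in thalamus (median 91.5), a log2 difference of 2.24 (SE 0.22, edgeR adjusted p = 9.97e-06). Its neighbour miR-296-3p followed at 1.74 (SE 0.37), with medians of only 2.06 and 7.56 CPM. Each of these was higher in all 6 rats, and none overlapped between the regions.

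miR-181b-5p, a brain and lymphocyte miRNA, had 4044 to 5585 CPM in cortex (median 4775) and 7493 to 13921 CPM in thalamus (median 9716). The libraries did not overlap (log2 difference 1.04, SE 0.17, edgeR adjusted p = 0.000429). miR-181a-5p, with the same seed, was higher in all 6 rats but overlapped, at 17828 to 26444 CPM in cortex (median 20780.2) and 26100.5 to 41259 CPM in thalamus (median 30602). Its log2 difference was 0.61 (SE 0.16, edgeR adjusted p = 0.0124, and 0.0568 without rat 34). Of the 7 tested arms of the miR-181 family, 3 rose and none fell, beside 11.2% and 10.4% of all miRNAs. Without rat 55, 3 rose and 1 was higher in cortex. miR-21-5p, induced in many reactive and proliferating cells, read 3259 to 5484 CPM in cortex (median 4776) and 7823 to 13913 CPM in thalamus (median 10467), with a log2 difference of 1.20 (SE 0.20, edgeR adjusted p = 0.000469). miR-31a-5p rose in the same direction, from a median of 49.3 CPM in cortex to 229 CPM in thalamus (log2 difference 2.00, SE 0.28, edgeR adjusted p = 0.000195).

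**Figure D3:**
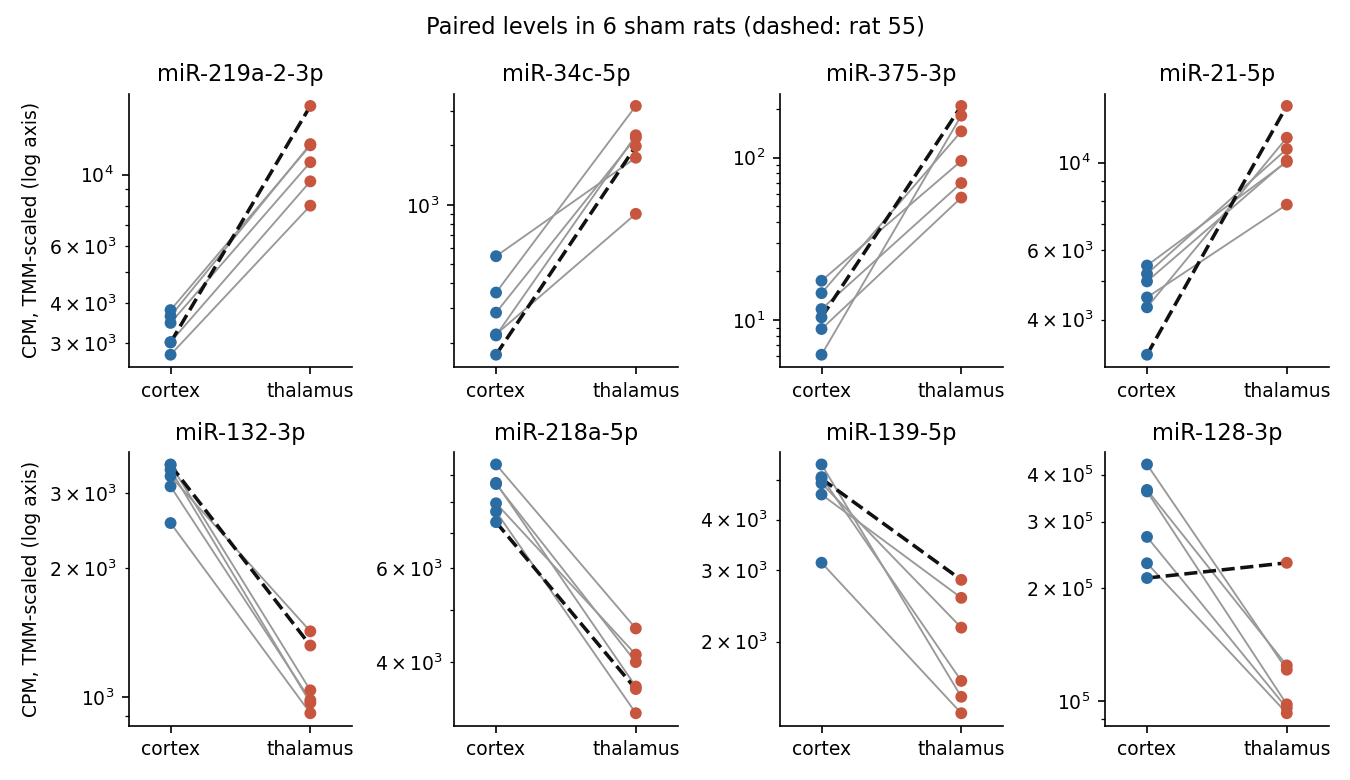
Levels of 8 miRNAs in each of the 6 sham rats, in TMM-scaled CPM on log axes, with blue points for cortex, red points for thalamus and a line joining the 2 libraries of a rat (dashed for rat 55). In 7 panels all 6 lines run the same way, and in the panel of miR-128-3p the dashed line rises slightly from 212552 to 233284 CPM while the other 5 fall.

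miRNAs of 2 hairpins inside Htr2c, the serotonin 2C receptor gene, were looked at after their values were seen. miR-448-3p had a median of 10.8 CPM in cortex and 39.96 CPM in thalamus, and miR-1298 had 137 CPM and 539 CPM. Both varied widely within a region, miR-1298 from 81.0 to 1065 CPM in cortex and from 268 to 3595 CPM in thalamus, so that the regions overlapped. The log2 differences were 2.06 (SE 0.48, edgeR adjusted p = 0.00694) and 2.13 (SE 0.64, edgeR adjusted p = 0.0309), and each was higher in 5 of 6 rats. The call of miR-1298 was lost without rat 32, 34, 50 or 55, at log2 differences of 2.31, 1.86, 1.62 and 1.79 and edgeR adjusted p of 0.0666, 0.125, 0.0881 and 0.0557, and without the rat block (edgeR adjusted p = 0.0526).

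The imprinted Dlk1-Dio3 cluster, a large maternally expressed array of miRNA hairpins, gave 8 of 65 tested arms higher in thalamus and none higher in cortex, beside 11.2% and 10.4% of all miRNAs. Its median log2 difference was 0.21, against 0.05 for all miRNAs. Without rat 55, 12 arms were higher in thalamus and 4 higher in cortex, beside 139 calls over all miRNAs, and the median was 0.09. On library totals 24 arms were higher in thalamus, where calls over all miRNAs also rose, to 133, most of them higher in thalamus. miR-380-5p ran from 79.3 to 104 CPM in cortex (median 96.1) and from 180.2 to 270.3 CPM in thalamus (median 209), with no overlap (log2 difference 1.16, SE 0.17, edgeR adjusted p = 0.00026). The close neighbour miR-758-3p gave 1.22 (SE 0.18, edgeR adjusted p = 0.000263), and miR-341 gave 1.26 (SE 0.23, edgeR adjusted p = 0.00122). Both arms of miR-433 rose, miR-433-3p from a median of 3946 CPM in cortex to 6914 CPM in thalamus (log2 difference 0.80, SE 0.20, edgeR adjusted p = 0.0112). The call of miR-433-3p was lost without rat 34 (edgeR adjusted p = 0.0565) and without the rat block (edgeR adjusted p = 0.0764). The abundant members miR-127-3p, miR-434-3p and miR-379-5p were not among those called.

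On the cortex side, the cluster of miR-132 and miR-212 stood out. All 4 of its arms were higher in cortex, beside 10.4% of all miRNAs, with a list median of -1.71. These miRNAs are transcribed together on chromosome 10, respond to neuronal activity through CREB and act on dendrite and synapse growth. miR-132-3p read 2554 to 3503 CPM in cortex (median 3348) and 916 to 1424 CPM in thalamus (median 1009). The 12 libraries fell into 2 ranges without overlap (log2 difference -1.55, SE 0.17, edgeR adjusted p = 2.58e-05). miR-132-5p ran from 1640.1 to 2375 CPM in cortex (median 1915) and from 396 to 559.7 CPM in thalamus (median 440.4), which made it 4.19-fold higher in cortex (log2 difference -2.07, SE 0.17, edgeR adjusted p = 8.68e-06). miR-212-5p went from 1083 to 2149.6 CPM in cortex (median 1473) to 283 to 689.9 CPM in thalamus (median 365), with the thalamus library of rat 55 the highest of its region. Its log2 difference was -1.87 (SE 0.24, edgeR adjusted p = 7.72e-05) with that rat and -2.18 without. The rarest arm, miR-212-3p, gave -1.16 (SE 0.21, edgeR adjusted p = 0.00113).

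Among neuron-enriched miRNAs, 4 of 17 tested arms were higher in cortex, none was higher in thalamus, beside 10.4% and 11.2% of all miRNAs, and the list median was -0.53. Without rat 55, 8 of them were higher in cortex, and on library totals 3 were higher in cortex and 1 in thalamus. miR-128-3p, made from hairpins in R3hdm1 and Arpp21, ran from 212552 to 425828 CPM in cortex (median 317161) and from 92959 to 233284 CPM in thalamus (median 109722). It was higher in cortex in 5 of 6 rats, the exception being rat 55 (log2 difference -1.34, SE 0.24, edgeR adjusted p = 0.00107, and -1.69 without that rat). miR-128-1-5p, from the other arm of the R3hdm1 hairpin, was rare but did not overlap, at 14.7 to 32.2 CPM in cortex and 3.13 to 6.80 CPM in thalamus (log2 difference -2.10, SE 0.30, edgeR adjusted p = 0.000213). miR-9a-5p, which controls neural progenitors and is kept in mature neurons, had a median of 111887 CPM in cortex and 74095 CPM in thalamus, higher in cortex in all 6 rats without overlap (log2 difference -0.63, SE 0.16, edgeR adjusted p = 0.0106). It did not pass when scaled by library totals alone (-0.27, edgeR adjusted p = 0.0749), nor without rat 26 or 50 (edgeR adjusted p = 0.0562 and 0.0681). miR-383-5p was the remaining call, at -0.96 (SE 0.22, edgeR adjusted p = 0.00538, and 0.0551 without the rat block). miR-124-3p, the defining neuronal miRNA, did not pass, at 6033 to 9838 CPM in cortex and 3426 to 6923 CPM in thalamus.

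Further miRNAs higher in cortex lie within genes known from neurons. miR-139-5p and miR-139-3p lie in Pde2a, a phosphodiesterase gene of forebrain neurons, and gave log2 differences of -1.28 (SE 0.19) and -1.67 (SE 0.25), both at an edgeR adjusted p of 0.000263. miR-139-5p read 3130.5 to 5474 CPM in cortex (median 4982) and 1330.2 to 2839.7 CPM in thalamus (median 1881). miR-218a-5p comes from hairpins in Slit2 and Slit3, genes of axon guidance, and had 7336 to 9425 CPM in cortex (median 8309) and 3199.7 to 4624 CPM in thalamus (median 3794). It did not overlap (log2 difference -1.11, SE 0.15, edgeR adjusted p = 0.00018). miR-873-3p, inside Lingo2, went from a median of 109.5 CPM in cortex to 40.3 CPM in thalamus (log2 difference -1.36, SE 0.21, edgeR adjusted p = 0.000291). No messenger RNA was measured in these libraries, so the host genes give the position only.

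Of the vascular and muscle lists, 3 of 6 and 2 of 3 tested arms were higher in cortex, beside 10.4% of all miRNAs, and none of them passed on library totals alone. miR-199a-5p, in neither list, comes from an antisense transcript within Dnm3, is typical of mesenchymal cells and read 73.9 to 118 CPM in cortex (median 95.4) and 13.0 to 50.3 CPM in thalamus (median 18.5), a log2 difference of -2.06 (SE 0.23, edgeR adjusted p = 3.85e-05). miR-483-3p, within the growth factor gene Igf2 that leptomeninges and vessels express, ran from 9.70 to 69.4 CPM in cortex (median 17.2) and from 0 to 6.07 CPM in thalamus (median 2.03). Its log2 difference of -2.75 (SE 0.42, edgeR adjusted p = 0.000279) rested on few reads in thalamus. The 3 vascular arms were both arms of miR-143 and miR-145-3p, of smooth muscle. miR-143-3p had a median of 34289 CPM in cortex and 19582 CPM in thalamus (log2 difference -0.69, SE 0.19, edgeR adjusted p = 0.0177), lower in cortex only in rat 55. This call was lost whenever any other rat was left out, at edgeR adjusted p of 0.0523 to 0.0832. miR-126a-3p of endothelium did not pass, at medians of 11567 and 10329.6 CPM. The summed vascular list ran from 34322 to 56776 CPM in cortex and from 28797 to 40152 CPM in thalamus.

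The 2 muscle miRNAs were miR-1-3p and miR-133a-3p. miR-1-3p read 421 to 706 CPM in cortex (median 652) and 265 to 452 CPM in thalamus (median 369), with a log2 difference of -0.80 (SE 0.18, edgeR adjusted p = 0.00464), and its cluster partner miR-133a-3p gave -0.96 (SE 0.30, edgeR adjusted p = 0.0324), a call lost without rat 26, 32 or 34 (edgeR adjusted p = 0.0645, 0.0646 and 0.111). The summed muscle list ran from 521 to 857 CPM in cortex and from 335 to 539 CPM in thalamus. The study detached the temporal muscle on the operated side, and the part of muscle in these values was not tested. Of 3 tested arms of miR-221 and miR-222, which come from one transcript on chromosome X, 2 were higher in cortex, beside 10.4% of all miRNAs. They were miR-221-5p at a log2 difference of -1.19 (SE 0.19, edgeR adjusted p = 0.000369) and miR-222-3p at -0.84 (SE 0.18, edgeR adjusted p = 0.00464). The latter had no call on library totals (-0.46, edgeR adjusted p = 0.146). The most abundant arm, miR-221-3p, did not pass, at a log2 difference of -0.63. miR-203a-3p, an epidermal miRNA, had a median of 176 CPM in cortex and 79.8 CPM in thalamus (log2 difference -1.12, SE 0.18, edgeR adjusted p = 0.000423).

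Large families of broadly expressed miRNAs gave few calls, beside 21.6% of all miRNAs. A list of few arms can hold 0 or 1 call at that share. None of the 17 tested arms of let-7 and miR-98, of the 11 of miR-30 or of the 10 of miR-99, miR-100 and miR-125 passed, and their list medians were -0.10, -0.20 and 0.14. On library totals these medians were 0.29, 0.20 and 0.51, with the 0.42 shift of all miRNAs in them. Without rat 55 there were 1, 2 and 1 calls in these lists, all higher in cortex. On library totals there were 1, 1 and 3, all higher in thalamus. miR-29a-3p was the single call of 5 in its family (log2 difference -0.55, SE 0.16, edgeR adjusted p = 0.0274), and miR-24-3p the single call of 9 among miR-23, miR-27 and miR-24 (-0.56, SE 0.18, edgeR adjusted p = 0.0409). Neither passed on library totals alone. The call of miR-29a-3p was also lost without rat 26, 32, 34 or 50, and that of miR-24-3p without rat 26, 34, 38 or 50, at edgeR adjusted p of up to 0.12 and 0.146. The list of miR-17-92 and its paralogs had a median of 0.48 and 1 call of 13, miR-25-3p of a paralog cluster at 0.76 (SE 0.18). Without rat 55 this list had 6 calls and on library totals 8, all higher in thalamus. No call fell among the 8 tested arms of miR-15, miR-16, miR-103 and miR-107, the 3 of miR-26 or the 2 of the cluster of miR-183, miR-96 and miR-182, and the list of miR-130 and miR-301 had 1 of 4, miR-301a-3p. Without rat 55 the first of these lists had 3 calls higher in thalamus and 1 higher in cortex, and miR-26 had 1 of each. On library totals these lists, in the order named, had 2, 0, 1 and 2 calls, all higher in thalamus.

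**Figure D4:**
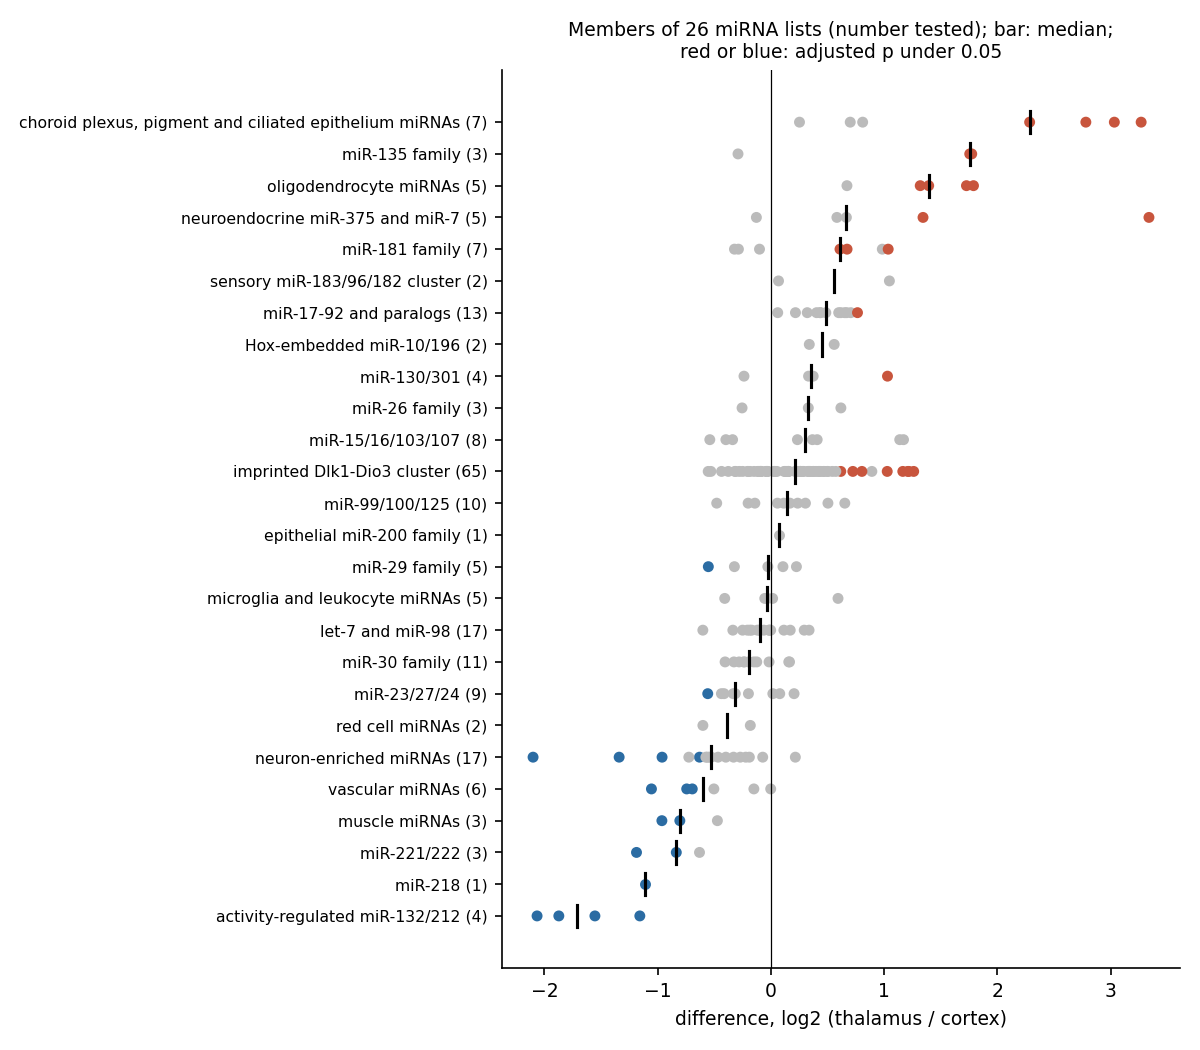
Log2 of thalamus over cortex for the tested members of 26 miRNA lists, 1 row a list with the number tested in brackets, the black bar at the median. Red and blue points passed an adjusted p of 0.05, and the rows run from the choroid plexus and ciliated list (median 2.28) at the top to miR-132 with miR-212 (median -1.71) at the bottom.

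The tissue labels were set beside markers of other cells and regions. Neuron-enriched miRNAs summed to 328603 to 585996 CPM in cortex and 177767 to 349685 CPM in thalamus, ranges that overlapped. Most of the sum was miR-128-3p (mean 311616 CPM in cortex, 127700 CPM in thalamus) and miR-9a-5p (112224 and 72009 CPM). Of all miRNAs tested 21.6% were called, and a list of 5 or 2 arms can hold no call at that share. Microglial and leukocyte miRNAs gave no call of 5 tested, and miR-223-3p was too rare to test. Their summed levels were 1185 to 1524 CPM in cortex and 1093 to 1472 CPM in thalamus. Without rat 55, 1 of the 5 was higher in thalamus, as was 1 on library totals. Red cell miRNAs summed to 28.2 to 51.0 CPM in cortex and 15.1 to 38.7 CPM in thalamus with no call of 2, and without rat 55 1 was higher in cortex. miR-200c-3p, the only tested member of the epithelial miR-200 family, stayed at 13.6 CPM or below. miR-10a-5p and miR-10b-5p, which mark hindbrain and spinal cord, read 30.2 to 194 CPM and 53.6 to 110.2 CPM in cortex, 53.0 to 145 CPM and 69.4 to 214 CPM in thalamus, and neither passed. miR-196a-5p had at most 1 read in any library.

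Among hairpins with both arms tested, the arms had the same sign in 79 and opposite signs in 24. In 13 of them both arms were called, all 13 in the same direction, 7 higher in thalamus and 6 higher in cortex. In the 12 with 1 arm called, the other arm had the same sign each time, so the 24 with opposite signs had no called arm. The ratio of the 5p to the 3p arm, which needs no scaling between libraries, passed in none of 89 hairpins (0%) by limma, and 5 had an unadjusted p under 0.05. Without rat 55 there were 12 calls. The largest of these ratio differences with all 6 rats was that of miR-199a, at a log2 difference of -1.04 (SE 0.31, limma adjusted p = 0.553).

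When counts were summed over miRNAs with the same seed, 34 of 282 seed families were higher in thalamus (12.1%) and 37 higher in cortex (13.1%). The family with seed GGCAGUG, which joins miR-34b-5p and miR-34c-5p with miR-34a-5p and miR-449a-5p, ran from 411 to 878 CPM in cortex and from 1429.6 to 3927 CPM in thalamus (log2 difference 2.14, SE 0.21, edgeR adjusted p = 2.09e-05). AACAGUC, shared by miR-132-3p and miR-212-3p, gave -1.57 (SE 0.15, edgeR adjusted p = 2.05e-05). ACAUUCA of the 4 miR-181 members gave 0.64 (SE 0.13, edgeR adjusted p = 0.00288). The let-7 seed GAGGUAG, among the largest families with 122468 ± 14902 CPM in cortex and 117132 ± 18395 CPM in thalamus, differed by less than its spread (log2 difference -0.07, SE 0.13, edgeR adjusted p = 0.718).

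The share of tRNA-derived reads overlapped between the regions. The share was taken over the 595 miRNA and tRNA rows kept in both regions, so other small RNA is not in it. It was 6.10% to 14.5% in cortex (median 10.4%) and 8.26% to 16.7% in thalamus (median 10.8%). The difference of 1.34 percentage points (SD 4.73 over the rats) was smaller than the spread, thalamus was higher in 4 of 6 rats, and the exact two-sided paired permutation p was 0.5. Fragments of tRNA-Gly-GCC led in both, with 43.9% ± 2.88 of the tRNA reads in cortex and 39.9% ± 2.59 in thalamus, before tRNA-Glu-CTC with 17.6% ± 1.85 and 18.8% ± 1.33 and tRNA-Lys-CTT with 12.9% ± 1.81 and 12.9% ± 1.54.

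Few single tRNAs differed. Of 250 tRNA features, 3 were higher in thalamus (1.2%) and 2 higher in cortex (0.8%) by limma with adjustment over all 595 small RNA rows, and 25 had an unadjusted p under 0.05. The adjustment pooled tRNA with miRNA rows, and 60 of the 595 rows passed, so most calls in the pool were miRNAs. The smallest unadjusted limma p of a tRNA feature was 0.0016. An adjustment over the 250 tRNA features alone was not run. With a smallest limma p of 0.0016 and only 5 features past the pooled cutoff, none of the 250 could pass it. These calls therefore hold for the pooled rows only. tRNA3805-PheGAA was rare, at 1.27 to 5.15 CPM in cortex (median 3.65) and 5.73 to 10.8 CPM in thalamus (median 7.79), without overlap (log2 difference 1.12, SE 0.27, limma adjusted p = 0.0221). tRNA6477-ArgTCT ran from 7.97 to 18.2 CPM in cortex and from 19.2 to 25.95 CPM in thalamus (log2 difference 0.89, SE 0.22, limma adjusted p = 0.0255), and tRNA3877-ArgTCG from 5.09 to 8.74 CPM and from 8.84 to 20.1 CPM (0.89, SE 0.24, limma adjusted p = 0.0375). The 2 features higher in cortex, tRNA2182-GlyGCC and tRNA2180-GlyGCC, had near-equal levels, and whether they share reads was not tested. They gave -0.69 each (SE 0.20, limma adjusted p = 0.0483 and 0.0488, and 0.0725 and 0.0781 without the rat block).

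These calls were not stable. Leaving out rat 32, 38 or 50 left 0 calls and leaving out rat 26 left 1, while without rat 55 there were 22. On the CPM as deposited, 37 features were higher in thalamus and none higher in cortex, and the median over tRNA features moved from 0.03 to 0.38. Which scale is nearer to the tissue was not tested. Summed per anticodon, 2 of 46 were higher in thalamus (4.35%), Arg-TCG with 1 feature (log2 difference 0.89, SE 0.19, limma adjusted p = 0.0233) and Arg-TCT (0.93, SE 0.22, limma adjusted p = 0.0285, and 0.0788 without the rat block). Arg-TCT was higher in 5 of 6 rats and overlapped, at 16.5 to 78.6 CPM in cortex and 35.5 to 65.7 CPM in thalamus. Leaving out rat 32, 38 or 50 removed both calls, and leaving out rat 26 kept 1. The leading anticodon, Gly-GCC, ran from 32462 to 62893 CPM in cortex and from 26515 to 68974 CPM in thalamus and did not pass (log2 difference -0.34, SE 0.24, limma adjusted p = 0.586).

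The regional difference was looked up in the 6 TBI rats, whose libraries did not enter the sham fit. In them, 88 of 386 miRNAs were higher in thalamus (22.8%) and 62 higher in cortex (16.1%). Of the 80 sham-called miRNAs that were tested there, all 80 had the same direction and 68 (85.0%) passed in that direction, which is 45.3% of the 150 called in TBI rats. Over all 372 miRNAs tested in both, 298 (80.1%) had the same direction. miR-375-3p stood at 3.34 (SE 0.33) in sham and 1.82 (SE 0.23) in TBI rats, whose means were 41.0 ± 26.7 CPM in cortex and 145 ± 75.6 CPM in thalamus (SD, n = 6). miR-132-5p stood at -2.07 (SE 0.17) and -1.503 (SE 0.14), and miR-34c-5p at 2.78 (SE 0.27) and 1.94 (SE 0.18). miR-219a-2-3p stood at 1.79 (SE 0.17) and 1.78 (SE 0.12). Among the sham calls that did not pass in TBI rats were miR-296-3p, miR-143-3p, miR-145-3p and miR-301a-3p. Their log2 differences there were 0.60, -0.25, -0.32 and 0.30 (edgeR adjusted p = 0.159, 0.0619, 0.0878 and 0.424). The difference between the sham and the TBI effect was tested over all 24 libraries for 407 miRNAs in edgeR, and none passed. The smallest adjusted p there was 0.419, for miR-375-3p, and 19 miRNAs had an unadjusted p under 0.05.

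**Figure D5:**
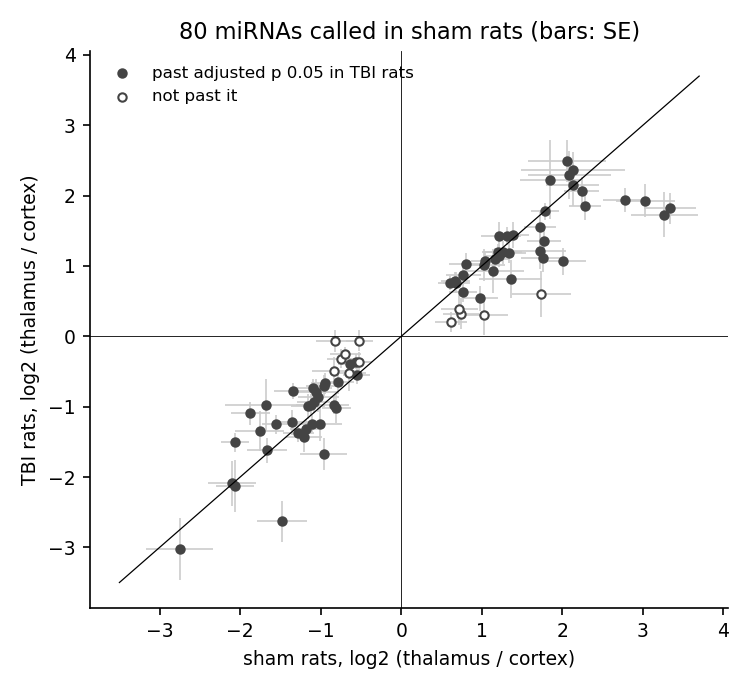
Log2 of thalamus over cortex in the 6 TBI rats against the same in the 6 sham rats, for the 80 miRNAs called in sham rats and tested in both, with bars for the standard error and the diagonal for equality. Filled points (68) also passed an adjusted p of 0.05 in TBI rats, and all 80 points have the same sign on both axes.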

How the data were processed

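Total RNA from cortex and thalamus of sham and TBI rats was made into small RNA libraries with adapter ligation and size selection and sequenced on a NextSeq 500. The authors checked reads with FastQC, mapped them to rat assembly RGSC3.4 and counted them per mature miRNA of miRBase. They deposited raw counts per region, and small RNA tables that, from their values, hold CPM of the kept miRNA and tRNA rows with no TMM factor. Ligation favours some ends, so levels of different RNAs are less comparable than the same RNA between regions. tRNA genes have many alike copies, and how reads were shared between them was not tested. The deposited miRNA-only CPM tables were not used.

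The 728 miRNA rows of both count tables were joined and scaled together, and counts were tested with edgeR 4.0.16 (R 4.3.3, filterByExpr, TMM, quasi-likelihood F test, rat as a block, thalamus minus cortex). SE is the absolute log2 difference over the square root of F. The 595 shared small RNA rows were rescaled, TMM-adjusted and tested as log2(CPM + 1) with limma 3.58.1 (trend, rat as a block), with Benjamini-Hochberg adjustment over all of them. tRNA rows at CPM of at least 1 in 6 libraries entered, and fold changes on this scale understate those of rare features. Anticodon sums used the same model, and arm ratios took log2 of counts plus 0.5 for hairpins with a mean of at least 20 counts. Calls needed an adjusted p under 0.05. Measures per library used exact sign-flip permutation tests over rats (scipy 1.17.1), adjusted over 3 measures. Scripts were tested on simulated data.

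On the small RNA CPM as deposited, 1 read was worth 0.222 to 1.17 CPM in cortex and 0.221 to 1.60 CPM in thalamus. That scale counts miRNA and tRNA reads together and holds no TMM factor, so it is not the scale of the miRNA levels above. Groups and rat numbers came from the sample titles, and the same number means the same animal. Deviations from the region means correlated within a rat at a median of -0.04 (-0.24 to 0.54) and between rats at -0.03. No 2 libraries of a group were duplicates, as counts of every pair differed by a chi-square of at least 31.4 per degree of freedom.

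The comparison and the miRNA lists were chosen with earlier results of these data known. miRNAs were named as the 10 smallest p in each direction on one side in all 6 rats, the 5 most abundant per region and up to 4 abundant members per list. tRNA features, anticodons and seed families followed like rules. miR-124-3p, miR-1298, miR-145-3p, miR-146b-5p, miR-203a-3p, miR-21-5p, miR-211-5p, miR-217-5p, miR-296-3p, miR-31a-5p, miR-34a-5p, miR-341, miR-380-5p, miR-383-5p, miR-433-5p, miR-448-3p and miR-758-3p fell outside the rule and were named after their values were seen.. Alternatives were no rat block, other scaling, DESeq2 1.42.0, other filters and pseudocounts, all 24 libraries, and leaving out each rat. The list and single miRNA values without rat 55 were added after the data were seen. RefSeq gave sequences and gene names.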

Additional observations from a re-analysis of the deposited data

Results flagged for a closer look

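In 136 groups of 6 libraries, 1 for each named RNA and region, the highest or lowest library was compared with its nearest neighbour by Dixon's test. It stood apart in 14, where chance gives about 1 in 20 or 6.8, and in 4 of the 14 it was the thalamus library of rat 55. In that library miR-128-3p read 233284 CPM where the next thalamus library had 124547, miR-139-3p read 288 against 135, miR-143-3p read 28092 against 20560 and miR-146b-5p read 6692 against 3417. All 4 of these miRNAs were higher in cortex in the other 5 rats.

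The cortex library of rat 34 stood apart for miR-219a-5p (296 CPM, next 163), for miR-217-5p at the low end (1.02 CPM, next 5.46), for miR-139-5p at the low end (3130.5 CPM, next 4614) and for the anticodon Arg-TCT (78.6 CPM, next 30.6). The cortex library of rat 26 was high for miR-34b-3p (14.8 CPM, next 5.88) and for miR-1298 (1065 CPM, next 367). The cortex library of rat 55 was high for miR-483-3p (69.4 CPM, next 28.2) and low for miR-433-5p (13.9 CPM, next 25.0). miR-199a-5p was high in the thalamus library of rat 34 (50.3 CPM, next 26.4), and tRNA2182-GlyGCC in the cortex library of rat 38 (5553 CPM, next 3451).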

How the results depend on the processing

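The miRNA calls numbered 81 and ran from 61 to 139 when 1 rat was left out, the 139 without rat 55. They came to 133 on library totals alone (112 higher in thalamus, 21 higher in cortex), to 128 in a fit of all 24 libraries, and to between 68 and 101 under the other alternatives, among them 91 without the replicate block and 101 in DESeq2. Of the 81, 81 were called by DESeq2, 75 without the block and 63 on library totals. In TBI rats the calls fell from 150 to 81 without the replicate block. tRNA features gave 5 calls, 3 with a mean of at least 10 CPM, 37 without TMM, 37 on the CPM as deposited, and 0 to 22 with 1 rat left out. Without the block there were again 5, all higher in thalamus. Anticodons gave 2, 1 without the block, 11 as deposited and 0 to 4 with 1 rat left out. Arm ratios gave 0, and 0 to 12 with 1 rat left out. Seed families gave 71, 110 on library totals and as few as 51 with 1 rat left out. List members gave 43, 75 on library totals and 34 to 76 with 1 rat left out. The difference in the share of the 5 most abundant miRNAs was -12.9 points, with the smallest exact permutation p that 6 pairs allow.

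Directions reversed for miR-26a-5p on library totals (0.11), for tRNA1668-GlyGCC without TMM (0.10) and on the CPM as deposited (0.10), and for Gly-GCC as deposited (0.025), none of them called. Without the replicate block miR-1298, miR-433-3p, miR-383-5p, tRNA2182-GlyGCC, tRNA2180-GlyGCC and Arg-TCT lost their calls, miR-7a-5p gained one, and no other RNA followed through the alternatives changed its call. The causes were not tested. A count test on reads recovered from the tRNA CPM was not run. With 5 rats no exact test can go below 0.0625. On the small RNA CPM as deposited, which is not the scale of the miRNA levels, the shallowest library resolves nothing under 1.596 CPM. Rare RNAs such as miR-483-3p in thalamus rest on few reads.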
